A study of Mus musculus with 4 samples.

Results

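The dual-specificity MAP kinase phosphatases were examined in cultured mammary tumor cell lines with and without JNK. The family was taken as the 10 genes Dusp1, Dusp2, Dusp4, Dusp5, Dusp6, Dusp7, Dusp8, Dusp9, Dusp10 and Dusp16, chosen by symbol, and all 10 were found among the 38713 genes measured. The JNK_WT lines (genotype p53-/-, n = 2) and the JNK_KO lines (genotype p53-/- JNK-/-, n = 2) were grown from mammary tumors of C57BL/6 mice, and each line was derived from 1 tumor and gave 1 RNA-seq library. The mice of both groups carried the Wap-Cre transgene, whose promoter is switched on in mammary epithelium by lactation, together with floxed Trp53, and those of the JNK_KO group also carried floxed Mapk8 and Mapk9, which encode JNK1 and JNK2. The third JNK gene, Mapk10, was not targeted and was at no more than 0.0430 FPKM in any line. The lines were numbered 1 and 2 in the JNK_WT group and 1 and 3 in the JNK_KO group.

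MAP kinases are active when a threonine and a tyrosine in their activation loop are both phosphorylated, and the dual-specificity phosphatases remove both phosphates. Each family member has a catalytic domain built around an essential cysteine and a separate domain that docks the kinase, which sets whether ERK, JNK or p38 is preferred. Dusp1, Dusp2, Dusp4 and Dusp5 encode nuclear, inducible enzymes, Dusp6, Dusp7 and Dusp9 encode cytoplasmic enzymes that prefer ERK, and Dusp8, Dusp10 and Dusp16 encode enzymes that prefer JNK and p38. Many of these genes are themselves switched on by the kinases that their products turn off, so that they act as negative feedback.

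Expression was given as FPKM, a fragment count scaled by transcript length and library size, which allows levels to be compared between genes of different length. FPKM summed to between 775960 and 921595 per library, and the upper quartile of the genes tested lay between 33.2 and 34.3 FPKM. Read counts were not given. The most common ratio between low values put the other libraries at 1.06 to 1.40 times the depth of JNK_KO line 1. This estimate is rough, since that ratio held for 203 of 4368 low genes in JNK_WT line 1, 199 of 4314 in JNK_WT line 2 and 515 of 4961 in JNK_KO line 3. Mapk8 was at 23.9 and 19.1 FPKM in the JNK_WT lines and at 4.30 and 4.27 FPKM in the JNK_KO lines, and Mapk9 was at 29.7 and 24.3 FPKM against 12.6 and 8.66 FPKM. Both targeted genes were therefore lower in each JNK_KO line, and neither was at 0. These values are of message only, and by immunoblot the paper found no JNK protein in its JNK_KO tumor cells. The n of each group counts separately derived lines, and in bulk RNA fewer cells of a type cannot be told apart from less RNA per cell.

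Of the 10 phosphatase genes, 8 were at 1 FPKM or more in every line. Dusp6, Dusp7 and Dusp4 were the 3 most abundant in each line and together held between 73.3% and 85.9% of the phosphatase FPKM. Averaged over the 4 lines, Dusp6 was at 101, Dusp7 at 83.4 and Dusp4 at 57.1 FPKM, and the ranges of these 3 genes over the lines overlapped, so that their order was not fixed. Dusp5 at 21.0 FPKM and Dusp16 at 17.3 FPKM came next on average and overlapped each other. They were not set apart from the genes below, since Dusp16 at 4.73 FPKM in JNK_KO line 1 was under Dusp9 at 9.23 and Dusp1 at 6.13 FPKM. Dusp9 at 8.14, Dusp1 at 6.44 and Dusp10 at 5.88 FPKM overlapped likewise. Dusp8 averaged 2.52 FPKM with a range over the lines that overlapped those of Dusp9, Dusp1 and Dusp10, and Dusp2 was nearly silent.

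**Figure D1:**
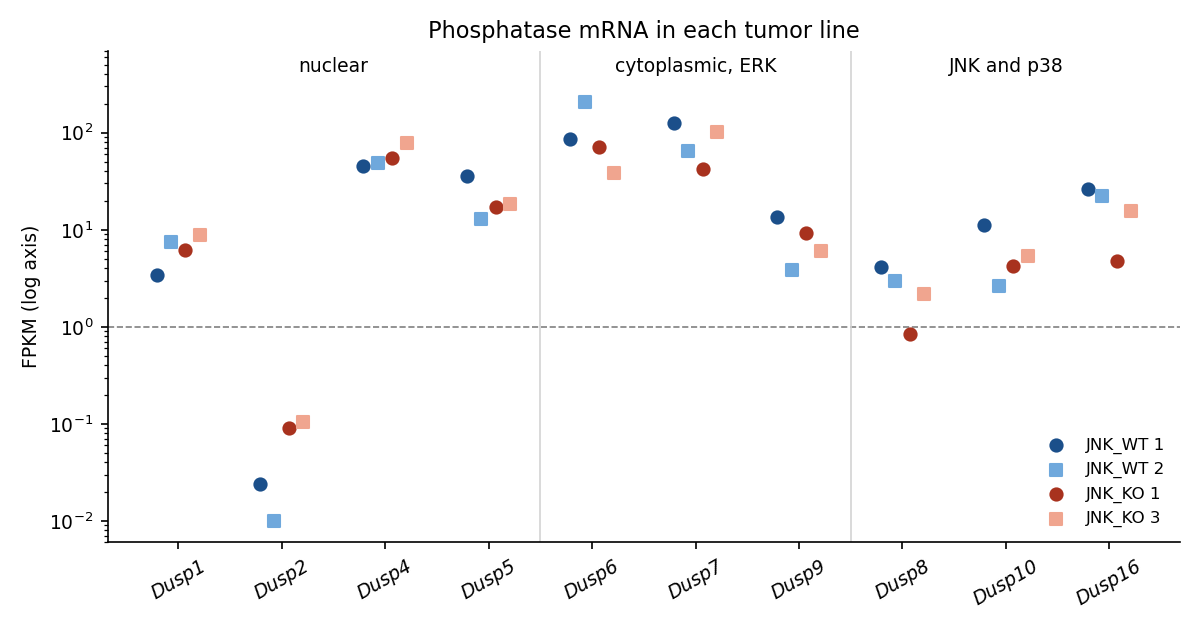
FPKM (log axis) of the 10 phosphatase genes in each of the 4 lines, 1 point per line, grouped by the class of enzyme. The dashed line marks 1 FPKM, which Dusp2 does not reach in any line. Both JNK_KO points lie below both JNK_WT points for Dusp6, Dusp8 and Dusp16 and above them for Dusp2 and Dusp4.

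The nuclear phosphatases were examined first. Dusp4 (mm10 chromosome 8, 34807297 to 34819894, plus strand), which encodes MKP2, an enzyme that acts on ERK and JNK, was at 45.3 and 49.1 FPKM in JNK_WT lines 1 and 2 and at 54.9 and 79.0 FPKM in JNK_KO lines 1 and 3. Both JNK_KO lines lay above both JNK_WT lines, with group means of 66.9 ± 17.1 and 47.2 ± 2.73 FPKM (SD, n = 2 each). The difference of log2(FPKM + 1), JNK_KO minus JNK_WT, was 0.47 (SE 0.28, 95% interval -0.26 to 1.21, adjusted p = 0.858, limma, over all genes tested). It was 0.21 without JNK_KO line 3 and 0.73 without JNK_KO line 1.

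Dusp1 (chromosome 17, 26505590 to 26562128, minus strand) encodes MKP1, the immediate early phosphatase of JNK and p38. It was at 3.40 and 7.42 FPKM in the JNK_WT lines and at 6.13 and 8.80 FPKM in the JNK_KO lines, so that the groups overlapped. Its log2 difference of 0.46 (SE 0.45) was smaller than the gap of 0.94 between the JNK_WT lines, and without JNK_WT line 1 it was -0.011. In GENCODE M21 the upstream end of its long span overlaps Ergic1 on the other strand, at 85.1 to 116 FPKM in the 4 lines, and reads of the overlap cannot be told apart where strand was not used.

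Dusp5 (chromosome 19, 53529109 to 53542431, plus strand) encodes a nuclear enzyme that acts on ERK alone within this family. It was at 35.5 and 13.0 FPKM in the JNK_WT lines and at 17.1 and 18.5 FPKM in the JNK_KO lines. The JNK_KO lines thus lay between the JNK_WT lines, whose log2 gap of 1.38 exceeded the log2 difference of -0.27 (SE 0.52) between genotypes. Without JNK_WT line 1 the difference was 0.42.

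Dusp2 (chromosome 2, 127336159 to 127338376, plus strand) encodes PAC1, best known from activated leukocytes. Its values were 0.0239 and 0.00999 FPKM in the JNK_WT lines and 0.0908 and 0.105 FPKM in the JNK_KO lines, and it was not tested because it did not reach 1 FPKM. The groups did not overlap, although levels this low rest on few reads. Of 9 leukocyte markers in the table, 6 were under 1 FPKM in all lines, among them Ptprc at no more than 0.0134 FPKM and Tyrobp at 0. The other 3 were Cd14 at 11.9 to 233 FPKM, Cd68 at 2.65 to 20.0 FPKM and Csf1r at 0.312 to 1.82 FPKM, each with overlapping groups.

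The cytoplasmic ERK phosphatases held the largest part of the family's message. Dusp6 (chromosome 10, 99263231 to 99267489, plus strand) encodes MKP3, a classic feedback inhibitor of ERK that is induced through ERK. It was at 85.5 and 207 FPKM in JNK_WT lines 1 and 2 and at 72.0 and 38.4 FPKM in JNK_KO lines 1 and 3. Both JNK_KO lines were below both JNK_WT lines, but the gap between JNK_WT line 1 and JNK_KO line 1 was narrow beside the spread within each group. The mean was 146 ± 85.6 FPKM for the JNK_WT lines and 2.64-fold lower, 55.2 ± 23.7 FPKM, for the JNK_KO lines (SD, n = 2 each). The log2 difference was -1.32 (SE 0.56, 95% interval -2.80 to 0.16), with adjusted p = 0.711 by limma. It was -0.69 without JNK_WT line 2 and -1.95 without JNK_WT line 1.

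Dusp7 (chromosome 9, 106368632 to 106375724, plus strand) encodes MKPX, a close relative of MKP3. It was at 126 and 64.2 FPKM in the JNK_WT lines and at 42.0 and 101 FPKM in the JNK_KO lines. Both groups were spread widely and overlapped, with log2 gaps of 0.97 and 1.24 within them against a log2 difference of -0.46 (SE 0.57) between them. The direction turned when JNK_WT line 1 (0.023) or JNK_KO line 1 (0.16) was left out.

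The X-linked Dusp9 (73639419 to 73643514, plus strand), which encodes MKP4 and is known for its part in the placenta, was at 13.4 and 3.88 FPKM in the JNK_WT lines and at 9.23 and 6.02 FPKM in the JNK_KO lines. The JNK_KO values again lay inside the JNK_WT range. The log2 difference was 0.013 (SE 0.62, 95% interval -1.64 to 1.66), an interval wide enough to hold differences in either direction, and it was -0.77 without JNK_WT line 2 and -0.26 without JNK_KO line 1. Its sign also turned under upper quartile scaling and quantile normalization.

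The phosphatases that prefer JNK and p38 were examined next, in cells where message of the JNK genes was itself lower. Dusp16 (chromosome 6, 134715468 to 134792625, minus strand) encodes MKP7, which binds and inactivates JNK. It was at 26.1 and 22.5 FPKM in JNK_WT lines 1 and 2 and at 4.73 and 15.8 FPKM in JNK_KO lines 1 and 3. The JNK_WT lines were close together, and both JNK_KO lines lay below them, line 1 much further than line 3. Group means were 24.3 ± 2.54 and 10.2 ± 7.80 FPKM (SD, n = 2 each), a 2.37-fold lower level in JNK_KO cells. The log2 difference of -1.37 (SE 0.58, 95% interval -2.91 to 0.18) was the furthest from 0 among the 9 phosphatases tested (adjusted p = 0.714, limma). JNK_KO line 1 set much of its size, since the difference was -0.59 without it and -2.14 without JNK_KO line 3.

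Dusp8 (chromosome 7, 142079490 to 142095843, minus strand), also a phosphatase of JNK and p38, was at 4.10 and 2.95 FPKM in the JNK_WT lines and at 0.840 and 2.18 FPKM in the JNK_KO lines. As for Dusp16, both JNK_KO lines were lower and line 1 was the lowest. The log2 difference was -0.89 (SE 0.41, 95% interval -1.99 to 0.21), with adjusted p = 0.756 by limma. It was -0.50 without JNK_KO line 1. At these low levels the added pseudocount of 1 shrinks the difference, which was -1.29 with a pseudocount of 0.1.

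Dusp10 (chromosome 1, 184013302 to 184075636, plus strand) encodes MKP5, the other phosphatase of this class. Its values were 11.3 and 2.61 FPKM in the JNK_WT lines and 4.26 and 5.41 FPKM in the JNK_KO lines. The JNK_WT lines differed from each other 4.32-fold, the widest ratio between lines of 1 genotype in the family, and the JNK_KO lines lay between them. The log2 difference was -0.20 (SE 0.66), and it was 0.69 without JNK_WT line 1 and -1.08 without JNK_WT line 2.

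Promoters were searched for elements of transcription factors that act downstream of MAP kinases. RefSeq promoters of GRCm38.p6, covering 250 bases before and 50 bases after the start of each gene, were matched for 8 of the 10 genes, all but Dusp4 and Dusp9. The cAMP response element TGACGTCA, read on both strands and bound by CREB, ATF and JUN family proteins, was present in Dusp1 and in Dusp8, which holds 2 copies, and in 1.79% of all 32851 promoters. A looser form, TGACNTCA, includes the former and was chosen after the letters had been seen. It was present in Dusp1, Dusp8, Dusp10 and Dusp16, that is, in 4 of 8 genes, and in 8.83% of all promoters. Because the form was picked from these same promoters, setting these shares side by side is no test of enrichment. Each of the 3 JNK and p38 phosphatases held it, but Dusp10 (TGACATCA) and Dusp16 (TGACCTCA) held only the looser form. The AP1 site TGANTCA (7.81% of all promoters), the STAT site TTCNNNGAA (8.30%) and the ETS site CCGGAAGT (3.89%) were not found in these windows of the 8 genes. The stretches that hold the looser element are shown 5′ to 3′ on the strand of the gene, with the element in capitals. They are chr17:26508583-26508640 (minus strand) for Dusp1, chr7:142095288-142095416 (minus strand) for Dusp8, chr1:184034199-184034256 (plus strand) for Dusp10 and chr6:134792638-134792695 (minus strand) for Dusp16.
Dusp1: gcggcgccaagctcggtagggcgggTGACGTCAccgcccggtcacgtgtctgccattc
Dusp8: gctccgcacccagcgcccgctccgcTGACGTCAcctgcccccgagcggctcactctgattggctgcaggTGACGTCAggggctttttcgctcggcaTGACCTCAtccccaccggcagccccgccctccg
Dusp10: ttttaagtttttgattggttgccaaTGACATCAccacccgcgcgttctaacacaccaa
Dusp16: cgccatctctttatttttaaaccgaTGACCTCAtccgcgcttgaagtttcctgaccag

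The element nearest to the start of Dusp8 begins 36 bases upstream of it, and that of Dusp16 begins 42 bases upstream. These 2 copies lie within a run of 12 bases, ATGACCTCATCC, taken as the longest stretch that the 2 promoters share. It is found in 6 of the 32851 promoters. Because the run was picked from these 2 promoters, that count is no test of a common element, and other pairs of promoters were not compared. The RefSeq starts of Dusp1, Dusp5, Dusp8 and Dusp10 lie inside the gene spans of GENCODE M21. A match of letters is a description of the sequence, and binding of any factor was not measured.

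Dusp5 had a different feature, a pair of adjoining CArG boxes, the element bound by serum response factor, which is found in 1.63% of all promoters on either strand. It is shown because serum response factor is known to act downstream of ERK, and it lies at chr19:53529038-53529107 (plus strand), with both boxes in capitals.
Dusp5: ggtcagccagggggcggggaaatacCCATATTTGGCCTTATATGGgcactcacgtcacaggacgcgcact

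The family was next compared as a whole between genotypes. None of the 9 phosphatases tested was called at a limma adjusted p-value under 0.05 with an absolute log2 difference over 0.75, where the same rule called 0 (0%) of 12998 genes. By limma, 0 of the 9 had an unadjusted p-value under 0.05, beside 7.63% of all genes. The 3 genes Dusp6, Dusp8 and Dusp16 had a log2 difference below -0.75, beside 6.43% of all genes tested, and no phosphatase was above 0.75, beside 9.25%. For these 3 genes the groups also did not overlap, as for 4.96% of all genes. Groups did not overlap for 4 of the 9 genes, 3 lower and 1 higher in JNK_KO cells, while they did not overlap for 35.0% of all genes, 16.7% lower and 18.3% higher. The median log2 difference was -0.27 over the 9 phosphatases and 0.01 over all genes.

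**Figure D2:**
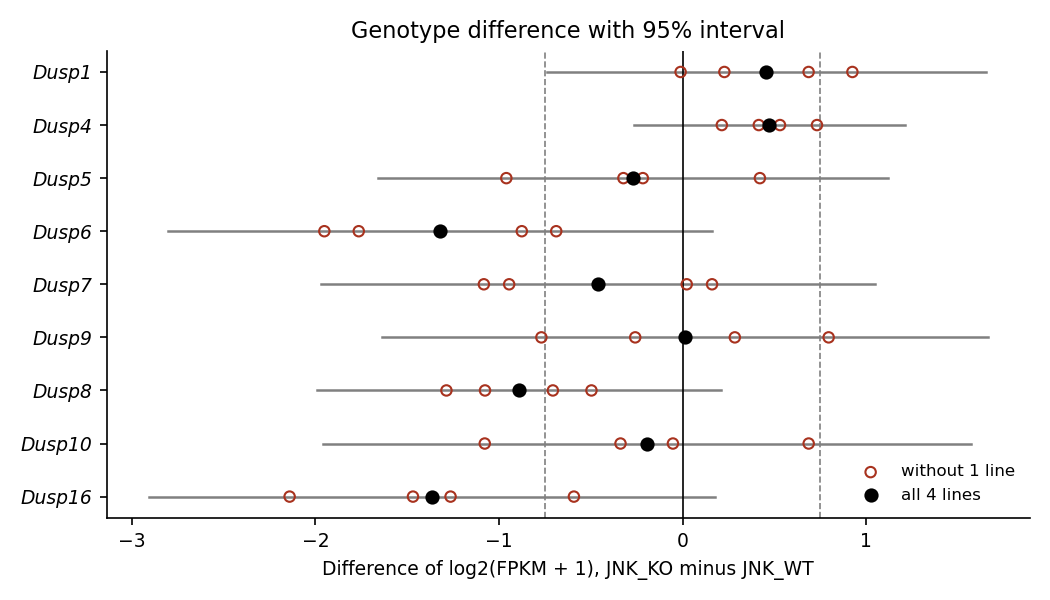
Difference of log2(FPKM + 1) between JNK_KO and JNK_WT lines for the 9 phosphatase genes tested. Filled points use all 4 lines, with the limma 95% interval as a grey bar, and open points each leave out 1 line. Dashed lines mark differences of 0.75. Every interval spans 0, and the open points lie on the same side of 0 as the filled one for Dusp4, Dusp6, Dusp8 and Dusp16.

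Lines of 1 genotype lay far apart for this family. The median log2 gap between the JNK_WT lines was 0.97 over the 9 phosphatases and 0.43 over all genes tested, and that between the JNK_KO lines was 0.54 against 0.33. The gap between the JNK_WT lines was larger than the genotype difference for 5 of the 9 genes (Dusp1, Dusp5, Dusp7, Dusp9 and Dusp10), beside 63.5% of all genes. JNK_WT line 1 had the highest value of 6 of the 9 genes, Dusp5, Dusp7, Dusp8, Dusp9, Dusp10 and Dusp16. JNK_WT line 2 was highest for Dusp6 alone, and JNK_KO line 3 for Dusp1 and Dusp4.

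Summed over the 10 genes, phosphatase message was at 351 and 372 FPKM in the JNK_WT lines and at 211 and 275 FPKM in the JNK_KO lines. The JNK_WT lines were thus close in total although the genes that made up the total differed, with Dusp6 at 24.3% and 55.5% of it and Dusp7 at 36.0% and 17.2%. The JNK_KO mean of 243 ± 45.1 FPKM was 0.672 times the JNK_WT mean of 362 ± 15.0 FPKM (SD, n = 2 each). The sum is mainly that of the 3 abundant genes. By class, the cytoplasmic ERK phosphatases summed to 225 and 275 FPKM in the JNK_WT lines and 123 and 145 FPKM in the JNK_KO lines. The JNK and p38 phosphatases summed to 41.5 and 28.1 FPKM against 9.83 and 23.3 FPKM. Both sums were without overlap, but within these classes Dusp7, Dusp9 and Dusp10 each overlapped. Dusp16 alone gave 26.1 and 22.5 FPKM of the JNK and p38 sums in the JNK_WT lines and 4.73 and 15.8 FPKM in the JNK_KO lines. The nuclear phosphatases summed to 84.2 and 69.6 FPKM against 78.2 and 106 FPKM, with overlap. Dusp4 accordingly made up 12.9% and 13.2% of the total in the JNK_WT lines and 26.0% and 28.7% in the JNK_KO lines.

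**Figure D3:**
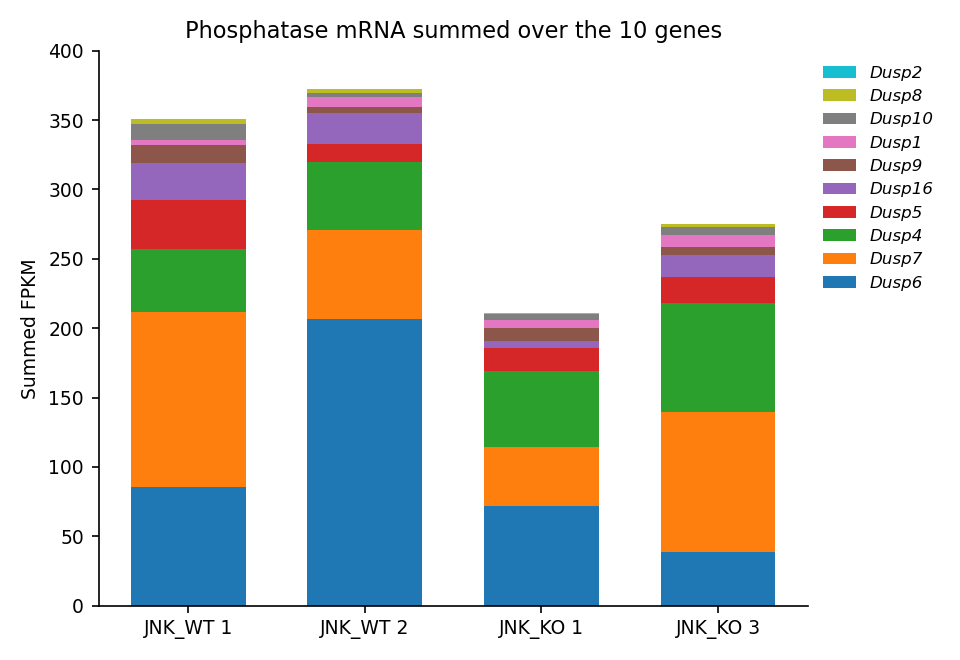
FPKM of the 10 phosphatase genes stacked for each of the 4 lines, 1 bar per line. The totals are 351 and 372 FPKM for the JNK_WT lines and 211 and 275 FPKM for the JNK_KO lines, and the Dusp6 segment varies most, from 38.4 to 207 FPKM.

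Because expression in such lines can follow whole chromosomes, each phosphatase was set beside the other genes of its chromosome. Dusp16 lies on chromosome 6, whose 590 other tested genes with a position had a median log2 difference of -0.59. Relative to that median the Dusp16 difference was -0.78, and 38 of the 590 genes (6.44%) were at or below it. Of the 20 nearest tested genes, 16 were lower in JNK_KO cells, with a median of -0.71. By exome sequencing the paper found this chromosome to be amplified in its JNK_WT tumor cells, and in some but not all of its JNK_KO tumor cells. The part of the chromosome, or of its copy number, in the Dusp16 difference was not tested. For Dusp6 on chromosome 10 and Dusp8 on chromosome 7, chromosome medians were -0.04 and -0.07 and the medians of the 20 nearest genes were 0.04 and -0.04, so the Dusp6 and Dusp8 differences stood at -1.28 and -0.82 relative to their chromosomes. In all, 5 of 572 other genes of chromosome 10 (0.874%) were at or below Dusp6.

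**Figure D4:**
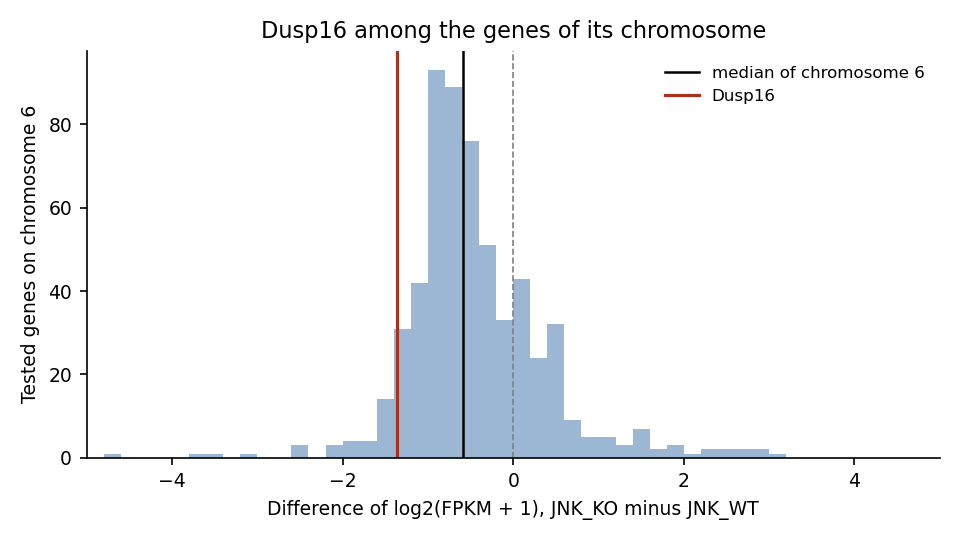
Histogram of the difference of log2(FPKM + 1), JNK_KO minus JNK_WT, over the 590 other tested genes of chromosome 6. The black line is their median of -0.59, the red line is Dusp16 at -1.37, and the dashed line marks 0. Dusp16 lies in the lower tail of a distribution that is itself shifted below 0.

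Other genes of the MAP kinase pathways were examined in 6 lists, of which no gene was called over all genes. Of 20 ERK-responsive genes, 5 were lower in both JNK_KO lines than in both JNK_WT lines and 0 were higher, beside 16.7% and 18.3% of all genes. By limma 4 had an unadjusted p-value under 0.05, beside 7.63% of all genes, and the median log2 difference was -0.43. Etv5, an ETS transcription factor gene induced by ERK like Dusp6, was at 62.2 and 90.7 FPKM in the JNK_WT lines and at 36.8 and 23.7 FPKM in the JNK_KO lines, a log2 difference of -1.32 (SE 0.35, limma adjusted p-value 0.458). Its lines stood in the same order as for Dusp6, with JNK_WT line 2 highest and JNK_KO line 3 lowest. The related Etv4, at 55.5 and 135 FPKM against 56.8 and 26.9 FPKM, differed by -1.13 with overlapping groups, and Plaur, the urokinase receptor gene, differed by -1.19 without overlap. These are levels of message, and by immunoblot the paper found ERK and p38 to be similarly activated in JNK_WT and JNK_KO tumor cells. The 20 immediate early genes, a class that includes transcription factor genes induced within minutes of a stimulus, had a median of 0.01, with 5 higher and 2 lower without overlap, beside 18.3% and 16.7% of all genes. The most different were Fosb at -0.93, Egr2 at 0.91 and Klf4 at 0.81.

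Among 9 MAP kinase genes tested, the median log2 difference was -0.42. Groups did not overlap for 3, all lower, beside 35.0% of all genes, 16.7% lower and 18.3% higher. These 3 were the targeted Mapk8 (-2.08) and Mapk9 (-1.28) and the p38 gene Mapk11 (-0.65). The ERK gene Mapk3 and the p38 gene Mapk14, which encode substrates of these phosphatases, differed by 0.30 and 0.0043. The 7 MAP kinase kinases had a median of -0.17, with Map2k4 at -0.69, Map2k3 at -0.33 and Map2k7 at 0.31. The 11 atypical dual-specificity phosphatases tested of 17, relatives without the docking domain, had a median of -0.15. Of them, 2 genes were higher and 2 lower without overlap, beside 18.3% and 16.7% of all genes. Their largest differences were those of Dusp22 at -0.86, Dusp11 at -0.64 and Dusp23 at 0.61. The 7 other MAP kinase phosphatases tested of 10 had a median of -0.11, with Ppm1a at -0.64, Ppp2ca at -0.48 and Ppm1b at -0.33.

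**Figure D5:**
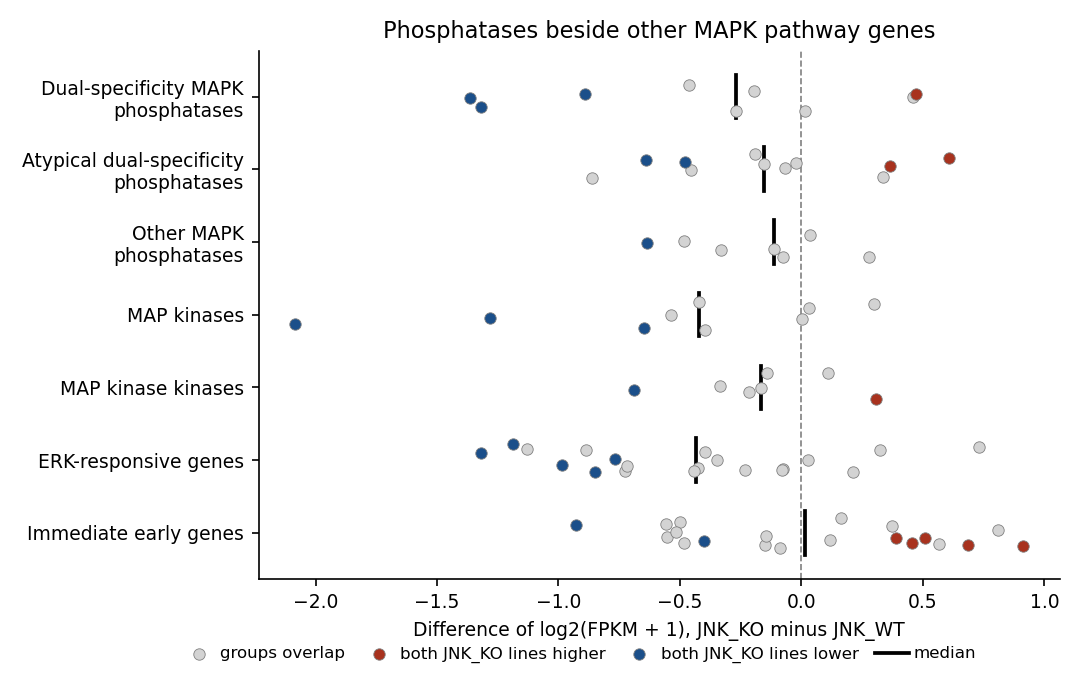
Difference of log2(FPKM + 1), JNK_KO minus JNK_WT, for the tested genes of the phosphatase family and of 6 other lists, 1 point per gene, with the list median as a black bar. Blue points are genes for which both JNK_KO lines are below both JNK_WT lines and red points those for which both are above. The ERK-responsive genes hold 5 blue and 0 red points, and the phosphatases hold 3 blue points and 1 red point.

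Markers of cell type also differed between lines. The 10 epithelial markers summed to 4113 and 3204 FPKM in the JNK_WT lines and to 1355 and 2848 FPKM in the JNK_KO lines. Epcam and Krt8 were lower in both JNK_KO lines than in both JNK_WT lines, Elf3 was higher in both, and the other 7 overlapped. JNK_KO line 1 had the lowest value of 8 of the 10, all but Krt19 and Elf3, and it was the lowest line for 3 phosphatases, Dusp7, Dusp8 and Dusp16. JNK_WT line 2 had the lowest value of the other 2 markers and was the lowest line for as many phosphatases, Dusp5, Dusp9 and Dusp10. The 10 fibroblast and mesenchymal markers summed to 343 and 49.0 FPKM against 609 and 337 FPKM, of which Vim gave 331 and 47.2 FPKM against 500.4 and 159 FPKM, with overlap. Of the 5 tested, Dcn, Pdgfra and Pdgfrb were higher in both JNK_KO lines, by 6.35, 3.59 and 1.67 on the log2 scale, while Vim and Col1a2 overlapped. The 8 basal markers summed to 734 and 376 FPKM in JNK_WT line 2 and JNK_KO line 3 and to 26.1 and 38.3 FPKM in JNK_WT line 1 and JNK_KO line 1, with Krt14 giving 443 and 313 FPKM of the higher sums, and none of the 4 tested was without overlap. All 5 endothelial markers were under 1 FPKM in all lines. The 9 leukocyte markers summed to 33.9 and 237 FPKM against 128 and 150 FPKM. The part of cell type in the phosphatase differences was not tested.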

How the data were processed

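RNA was sequenced from 4 tumor-derived lines as single-end reads of 40 bases. The authors trimmed the reads with Trimmomatic, subsampled them with seqtk, aligned them to mm10 with Bowtie2 and TopHat2 2.0.14, and deposited 1 FPKM value per gene and library from Cufflinks 2.2.1. Cufflinks shares out reads between overlapping transcripts, and strand was not stated, so values of Dusp1, Dusp5, Dusp8, Dusp10 and Dusp16, which overlap genes on the other strand in GENCODE M21, may include reads of those genes.

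Of 38741 rows, 27 with date-like symbols and 1 without a value were dropped. Genes with at least 1 FPKM in at least 2 libraries (12998) were tested on log2(FPKM + 1) with limma 3.58.1 in R 4.3.3 (eBayes with intensity trend, two-sided, Benjamini-Hochberg adjustment over all genes tested), because the study's Cuffdiff test needs alignments. The log2 scale with a pseudocount of 1 understates differences of low genes. The limma script was tested on simulated data. A planned exact permutation test on the summed FPKM is not reported, since the members were chosen with results known. Its smallest possible p-value with 2 libraries against 2 is 0.333. Positions were matched by symbol for 12167 (93.6%) of the genes tested. Named from each of the 6 pathway lists were the 3 genes with the largest absolute log2 difference, beside the targeted genes and all 10 phosphatases. Mapk3, Mapk14, Mapk10 and the cell type markers were named with their values known, and some genes of the lists are not reported here. The members and lists were chosen with earlier results of these data known. Alternatives were other pseudocounts, filters, scalings and variance models, and fits without each line.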

Additional observations from a re-analysis of the deposited data

How the results depend on the processing

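No paired analysis was made, because each line came from its own tumor and the line numbers mark no pairs. No phosphatase and no pathway gene was called under the 9 alternatives that kept all lines, an adjusted p-value threshold of 0.1 included. The main setting called 0 (0%) of all 12998 genes tested, and shares under the alternatives are not given here. Outside the fits without 1 line, direction turned for Dusp9 alone, at -0.0022 under upper quartile scaling and -0.056 under quantile normalization, and the cause was not tested. Fits without 1 line gave log2 differences from -0.011 to 0.93 for Dusp1, 0.21 to 0.73 for Dusp4, -0.96 to 0.42 for Dusp5, -1.95 to -0.69 for Dusp6, -1.08 to 0.16 for Dusp7, -1.29 to -0.50 for Dusp8, -0.77 to 0.80 for Dusp9, -1.08 to 0.69 for Dusp10 and -2.14 to -0.59 for Dusp16. In these fits the number of phosphatases with an absolute difference over 0.75 ranged from 1 (without JNK_KO line 1) to 7 (without JNK_WT line 2), beside 3 with all lines, and the median log2 difference ranged from -0.94 (without JNK_WT line 2) to 0.023 (without JNK_WT line 1). Shares of all genes over 0.75 are not given for the fits without 1 line. The counts of phosphatases in those fits therefore cannot be set beside the genes at large. The median over all genes tested was 0.018 without JNK_WT line 2 and 0.0064 without JNK_WT line 1. The log2 ratio of summed phosphatase FPKM was -0.57 with all lines and -0.78 to -0.39 without 1 line. Groups did not overlap for 5 genes without a filter, where Dusp2 joins, and for 3 with a mean of at least 5 FPKM, where Dusp8 drops out. The main setting gave 4, and shares over all genes are not given for the other filters.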

Other observations

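The JNK_WT lines differed from each other in the levels of these phosphatase genes. JNK_WT line 1 was higher for Dusp5 (35.5 against 13.0 FPKM), Dusp7 (126 against 64.2 FPKM), Dusp9 (13.4 against 3.88 FPKM) and Dusp10 (11.3 against 2.61 FPKM), and JNK_WT line 2 for Dusp6 (207 against 85.5 FPKM) and Dusp1 (7.42 against 3.40 FPKM). Of the 20 immediate early genes, 18 were higher in JNK_WT line 2 than in line 1, among them Fos at 36.7 against 2.17 and Egr1 at 118 against 15.5 FPKM, named after their values were seen. Of the 20 ERK-responsive genes, 13 were higher in line 2 and 7 in line 1, with Spry1 at 69.0 against 18.5 FPKM and Ccnd1 at 297 against 773 FPKM. Krt14, a basal keratin, was at 7.34 and 443 FPKM in the same lines. With 1 library per line these differences have no replicate.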
